A study of Mus musculus with 6 samples.

Results

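The genes described here encode the machinery that releases neurotransmitter from vesicles and the receptors that detect it: synaptotagmins, SNARE proteins, complexins, synapsins, and the receptors for glutamate, GABA and glycine. They were matched by gene symbol, by a rule set with earlier results of these data known, and 79 of the 14008 entries with a gene name matched. RNA was measured in 6 libraries enriched for retinal pigment epithelium (RPE), the pigmented cell layer behind the photoreceptors, from male C57BL/6J mice aged 8 to 10 weeks. C57BL/6J is an inbred laboratory strain, and no allele, transgene or treatment is named for either group. Eyes were taken at CT23 (3 libraries) and at CT1 (3 libraries), that is 2 h of circadian time apart, with subjective dawn between them, and each library pooled 2 RPE samples. The sources used here do not give the lighting before collection. Values are CPM, each gene's reads divided by those of its library and scaled up alike in all. The libraries were made with a kit that reads the 3′ end of each transcript, so CPM were compared between genes without division by length. Since tissue was measured in bulk, fewer cells of a type and less RNA per cell cannot be told apart.

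Vesicle release works through a small set of proteins. A vesicle SNARE (a Vamp) coils together with target SNAREs (a syntaxin, Stx, and a Snap protein) to pull the vesicle onto the plasma membrane, a synaptotagmin senses calcium and triggers fusion, and a complexin clamps and then assists the complex. In the retina, photoreceptors and bipolar cells release glutamate continuously at ribbon synapses, where syntaxin 3 is the main plasma membrane syntaxin and where the complexins Cplx3 and Cplx4 are used. Amacrine and horizontal cells are mostly inhibitory. RPE cells form no such synapses, and they use the widely expressed SNAREs for general membrane traffic. The members were therefore read in 2 subsets as well as by role: a retinal release subset of 14 listed genes (among them Syt1, Syt2, Vamp1, Vamp2, Snap25, Stx3, Cplx1, Cplx2, Cplx3, Cplx4, Syn1, Syn2 and Syn3) and the 20 other Stx, Vamp and Snap genes, called widely expressed SNAREs here.

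Some properties of the libraries bear on every value below. Library totals, recovered from the CPM, were 12612330 to 13651486 reads. Entries with a gene name held 32.27% and 30.60% of the total in CT23 replicates 1 and 2. They held 14.25% in CT23 replicate 3 and 12.65% to 15.03% in the CT1 libraries. CT23 replicates 1 and 2 stood apart, with 197593 and 179697 CPM of crystallins, the proteins of the lens. CT23 replicate 3 had 23384 CPM of them, and the CT1 libraries 2359 to 19307 CPM. Crystallins were a larger part of the named entries' reads than of the totals. They were 2697444 of 4405747 such reads in CT23 replicate 1, and 31224 of 1674783 in CT1 replicate 1. Markers of the RPE were present, with all 13 of the list above 0 and summed levels of 2366 to 2892 CPM at CT23, against 3165 to 3801 CPM at CT1. Rod markers, 19 of 19 listed, were present as well at 1342 to 1601 CPM at CT23, against 915 to 991 CPM at CT1, so the libraries held photoreceptor RNA. Skeletal muscle markers (11 genes) summed to 9.75 to 39.8 CPM at CT23, against 42.1 to 170 CPM at CT1.

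The comparison of CT23 with CT1 addressed how these genes differ around subjective dawn. By level, most genes of the retinal release machinery were higher at CT23, while widely expressed SNAREs lay on both sides, 13 of 20 of them lower, a majority that turned with the scaling. Cplx4, Syt1, Stx3, Snap25, Gria2 and Snap91 had the smallest p-values, with levels at CT23 that were 1.42 to 1.78 times those at CT1 and no overlap between the times. At an adjusted p of 0.05 limma called none of them, in a fit over the 11342 genes whose mean reached 1 CPM. No member and no other gene did (0.0% called in each direction), and edgeR's quasi-likelihood test on whole reads recovered from the CPM also called 0. At an unadjusted p under 0.05, limma gave 2469 genes and the quasi-likelihood test 2464.

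Of the 79 members, 52 had a mean of at least 1 CPM and were tested. At an adjusted p of 0.1, 6 members were higher and 0 were lower at CT23, where 3.06% of all genes tested were higher, 1.32% lower and 4.38% called in all. At an unadjusted p under 0.05, 16 members were higher (12.4% of all genes) and 1 was lower (9.39%). All 3 CT23 libraries lay above all 3 CT1 libraries in 17 members (16.3% of all genes) and below them in 4 (11.3%). The median log2 difference of the 52 was 0.14, against 0.01 for all genes tested, on the log2(CPM + 1) scale. With any 1 library left out no member was called at an adjusted p of 0.1, and the smallest adjusted p lay between 0.102 and 0.174. Without CT23 replicate 2, or without CT1 replicate 1, the 16 members higher at an unadjusted p under 0.05 became 10 (8.84% and 8.14% of all genes in those fits). Members that did pass an adjusted p of 0.05 did so under other settings: 4 higher and 0 lower with genes of a mean of 5 CPM or more (1.76% and 0.318% of those genes), and 2 higher and 0 lower with DESeq2 on recovered reads (1.5% and 1.05%). The last such setting, added once the data had been seen, took crystallin reads out of the library totals and gave 6 higher and 0 lower (3.11% and 0.0617%).

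**Figure D1:**
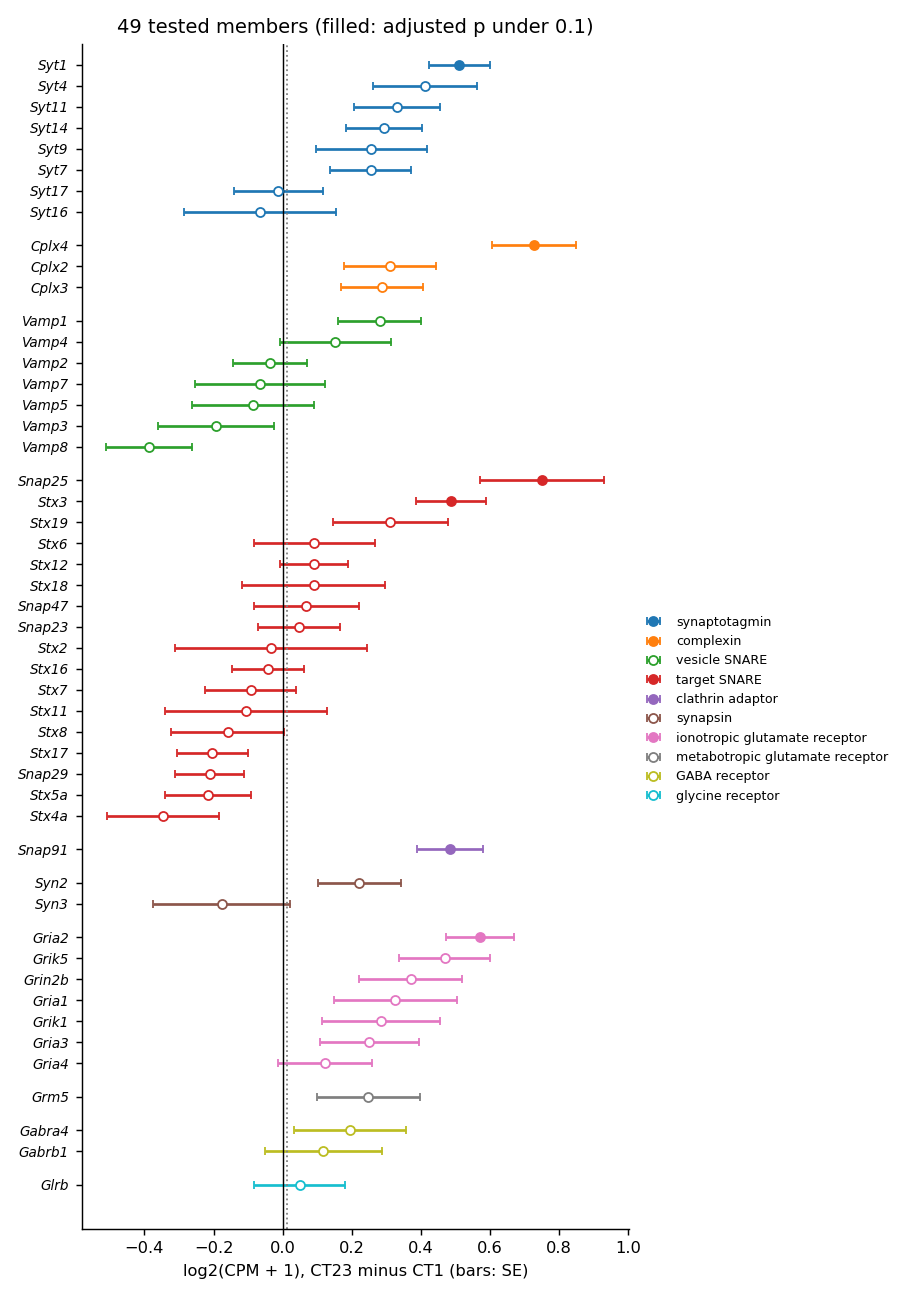
Log2 difference (CT23 minus CT1, on the log2(CPM + 1) scale) of 49 of the 52 tested members, grouped by role, with bars for the standard error and filled points for an adjusted p under 0.1. The dotted line is the median of all genes tested (0.01); every complexin and receptor gene drawn lies to the right of 0, while vesicle and target SNAREs lie on both sides.

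Synaptotagmins are the calcium sensors of exocytosis. Syt1, the main sensor for fast release, had the highest mean level of all members, with 47.6, 46.6 and 45.3 CPM in CT23 replicates 1, 2 and 3, against 32.6, 34.0 and 30.5 CPM in CT1 replicates 1, 2 and 3. The 3 libraries of each time lay close together, and the times were well apart. The ratio of means was 1.44, and the log2 difference was 0.51 (SE 0.0887, limma adjusted p = 0.0736). The gene lies on chromosome 10 (108497650 to 109010982, minus strand, mm10). Syt4, which lacks the usual calcium response and sits on dense-core and other vesicles, had 26.4, 23.97 and 18.7 CPM at CT23, against 14.3, 18.8 and 17.9 CPM at CT1. CT23 replicate 3 fell within the CT1 range, and the adjusted p was 0.176. Syt11, a family member that does not bind calcium, averaged 11.8 ± 0.606 CPM at CT23, against 9.20 ± 1.46 CPM at CT1 (± SD, 3 libraries a time), without overlap between the times. Syt14 averaged 2.53 ± 0.0381 CPM at CT23, against 1.88 ± 0.0953 CPM at CT1, also without overlap. Of the 8 synaptotagmins tested, 6 were higher at CT23, and Syt16 and Syt17 had log2 differences of -0.07 and -0.01.

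Complexins bind the assembled SNARE complex and set how readily it fuses. Cplx4, which is made mainly by retinal neurons with ribbon synapses, had 36.2, 29.7 and 30.1 CPM in CT23 replicates 1, 2 and 3, against 19.8, 20.5 and 16.4 CPM in CT1 replicates 1, 2 and 3. Every CT23 library was well above every CT1 library, with a ratio of means of 1.69 and a log2 difference of 0.73 (SE 0.122, limma adjusted p = 0.0736). Cplx3, the other ribbon complexin, had 3.96, 4.30 and 3.81 CPM at CT23, against 2.79, 3.09 and 3.48 CPM at CT1. Its times did not overlap either, but lay closer (log2 difference 0.29, adjusted p = 0.207). Cplx2, a complexin of conventional synapses, had 2.27, 2.07 and 1.69 CPM at CT23, against 1.21, 1.59 and 1.48 CPM at CT1. Cplx1, its close relative, lay below the filter, with 0.952, 0.768 and 0.807 CPM at CT23, against 0.378, 0.396 and 0.370 CPM at CT1. That is 5 to 13 reads a library, and the ratio of its means was 2.21. All 4 complexins thus had non-overlapping times with CT23 higher, where 15.4% of all 14008 named entries did. Their summed level, most of it Cplx4, was 43.4, 36.8 and 36.4 CPM at CT23, against 24.2, 25.6 and 21.8 CPM at CT1.

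The clock's activators bind the E-box CACGTG, and windows before the gene starts were searched for it because the groups compared differ in circadian time. Windows of 250 bases upstream of RefSeq gene starts (GRCm38.p6) were found for 53 of the 79 members, 68 windows in all. An E-box was present in 5 of the 68 windows (7.35%), of Cplx3, Grin1, Stx6, Syt14 and Vamp4, and in 6.02% of all 32851 windows. Cplx3 and Grin1 had it at 2 places, and 0.429% of all windows had it at 2 or more. Stx6, Vamp4 and Grin1 overlapped between the times, and another window of Vamp4 held no E-box. The windows of Cplx3 and Syt14, whose times did not overlap, and of Stx6 are given 5′ to 3′ along the gene, with the E-box in capitals.
Cplx3, chr9:57606282-57606531, minus strand: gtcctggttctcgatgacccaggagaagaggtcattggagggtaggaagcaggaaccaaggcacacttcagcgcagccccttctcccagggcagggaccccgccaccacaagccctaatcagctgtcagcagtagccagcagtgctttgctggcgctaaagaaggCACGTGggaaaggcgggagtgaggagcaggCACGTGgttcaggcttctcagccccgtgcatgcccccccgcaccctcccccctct
Syt14, chr1:193035776-193036025, minus strand: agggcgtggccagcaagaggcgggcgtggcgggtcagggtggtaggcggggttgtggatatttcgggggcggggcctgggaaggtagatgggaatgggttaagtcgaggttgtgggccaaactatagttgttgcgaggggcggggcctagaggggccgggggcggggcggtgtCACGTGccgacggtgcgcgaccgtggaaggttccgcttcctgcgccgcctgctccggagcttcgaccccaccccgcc
Stx6, chr1:155158453-155158702, plus strand: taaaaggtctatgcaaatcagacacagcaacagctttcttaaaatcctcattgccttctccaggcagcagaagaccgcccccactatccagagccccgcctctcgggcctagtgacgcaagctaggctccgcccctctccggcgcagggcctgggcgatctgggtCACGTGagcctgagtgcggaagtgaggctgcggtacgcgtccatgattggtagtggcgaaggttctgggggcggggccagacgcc
A match describes letters and not binding. The windows of Syt1, Stx3, Gria2 and Snap91 held no E-box. They also held none of the other 3 motifs searched on both strands, the cAMP response element TGACGTCA, the Crx core TAATCC and the D-box TTATGTAA, which occurred in 1, 2 and 1 of the members' windows and in 1.55%, 6.25% and 0.819% of all windows.

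Among the target SNAREs tested, Snap25 and Stx3, both of the retinal release subset, had the largest log2 differences. Stx3, the syntaxin of ribbon synapses and of apical membranes in epithelia, had 34.6, 33.4 and 30.1 CPM in CT23 replicates 1, 2 and 3, against 22.3, 25.3 and 21.6 CPM in CT1 replicates 1, 2 and 3. The times did not overlap (ratio of means 1.42, log2 difference 0.49, SE 0.101, limma adjusted p = 0.0740). Snap25, the neuronal target SNARE that botulinum toxins cut, had 21.5, 14.4 and 13.8 CPM at CT23, against 9.37, 10.8 and 7.77 CPM at CT1. CT23 replicate 1 was far above the other libraries, and the lowest CT23 library was still above the highest at CT1 (ratio of means 1.78, log2 difference 0.75, SE 0.181, adjusted p = 0.0906). Snap91, an assembly protein for clathrin at nerve terminals that is no SNARE, had 7.84, 7.53 and 7.19 CPM at CT23, against 4.91, 5.23 and 5.11 CPM at CT1. Its times were well apart, with a log2 difference of 0.49 (SE 0.0957, adjusted p = 0.0736).

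The vesicle SNAREs lay on both sides, with 2 higher and 5 lower at CT23. Vamp2, the main vesicle SNARE of synapses, had 6.52, 7.68 and 6.60 CPM in CT23 replicates 1, 2 and 3, against 6.72, 7.69 and 6.96 CPM in CT1 replicates 1, 2 and 3. The times overlapped almost completely (log2 difference -0.04, SE 0.107). Vamp1, its neuronal relative, had 4.03, 4.76 and 5.13 CPM at CT23, against 3.85, 3.49 and 3.55 CPM at CT1, a narrow gap without overlap (log2 difference 0.28, adjusted p = 0.220). Synapsins, which tether vesicles in reserve, were low. Syn2 had 1.47, 1.84 and 1.83 CPM at CT23, against 1.36, 1.35 and 1.26 CPM at CT1, without overlap. Syn3 had 0.879, 0.999 and 1.17 CPM at CT23, against 1.74, 1.59 and 0.666 CPM at CT1, where CT1 replicate 3 was the lowest of the 6 libraries. Syn1 and Syt2 lay below the filter and overlapped. Syn1 had 0.952, 0.538 and 0.953 CPM at CT23, against 0.604, 0.396 and 0.296 CPM at CT1. Syt2, a calcium sensor of fast synapses, had 0.879, 0.922 and 0.660 CPM at CT23, against 0.680, 0.872 and 0.815 CPM at CT1.

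**Figure D2:**
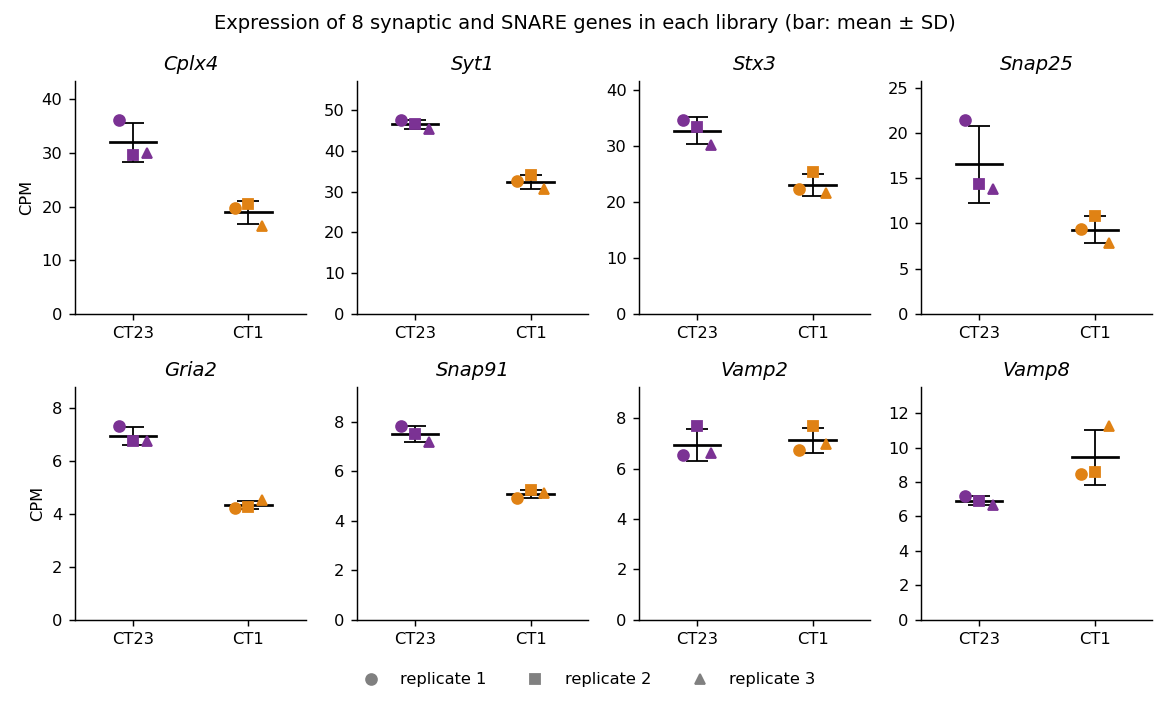
CPM of 8 members in each library, with CT23 left and CT1 right in each panel, replicates as symbols, and bars for the mean ± SD (n = 3 each). Cplx4, Syt1, Stx3, Snap25, Gria2 and Snap91 do not overlap between the times and are higher at CT23, Vamp2 overlaps, and Vamp8 is lower at CT23.

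All 20 widely expressed SNAREs were tested, and 13 were lower and 7 higher at CT23, with a median log2 difference of -0.08. With crystallin reads out of the library totals the majority turned, with 8 lower and 12 higher and a median of 0.07, where the median of all genes tested was 0.17. None was called at an adjusted p of 0.1. Vamp8, a vesicle SNARE of late endosomes and of secretion in epithelial and blood cells, was the 1 member lower at an unadjusted p under 0.05. It had 7.18, 6.91 and 6.67 CPM in CT23 replicates 1, 2 and 3, against 8.46, 8.56 and 11.3 CPM in CT1 replicates 1, 2 and 3. All CT23 libraries were below all CT1 libraries, and CT1 replicate 3 was the highest (ratio of means 0.734, log2 difference -0.39, SE 0.124, limma adjusted p = 0.139). Snap29, which acts in autophagosome fusion, had 4.54, 4.30 and 4.25 CPM at CT23, against 5.21, 5.39 and 5.04 CPM at CT1. Its partner Stx17, the syntaxin of autophagosomes, had 5.27, 4.61 and 4.77 CPM at CT23, against 5.97, 5.87 and 5.48 CPM at CT1. Neither overlapped between the times. The same was true of Stx5a, the syntaxin of traffic into the Golgi, with 3.81, 4.23 and 4.11 CPM at CT23, against 4.46, 4.44 and 5.78 CPM at CT1.

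Other members of the subset had smaller or less even differences. Stx4a, the plasma membrane syntaxin of many cell types, had 5.13, 3.30 and 3.15 CPM at CT23, against 4.83, 5.31 and 5.11 CPM at CT1, where CT23 replicate 1 fell among the CT1 libraries. Vamp3, the vesicle SNARE of recycling endosomes, had 5.86, 8.14 and 8.51 CPM at CT23, against 8.31, 7.29 and 10.5 CPM at CT1. Stx8, an endosomal syntaxin, had 0.733, 1.23 and 1.10 CPM at CT23, against 1.06, 1.03 and 1.70 CPM at CT1. All 3 overlapped between the times. Snap23, the widely expressed counterpart of Snap25, averaged 2.90 ± 0.251 CPM at CT23, against 2.77 ± 0.224 CPM at CT1, with a log2 difference of 0.05. Stx12, an endosomal syntaxin, was the single gene of this subset with all CT23 libraries above all CT1 libraries, at 5.26 ± 0.144 CPM at CT23, against 4.88 ± 0.203 CPM at CT1. With crystallin reads out of the totals the log2 differences of Snap29, Stx17 and Stx5a were -0.05, -0.04 and -0.06, against -0.21, -0.20 and -0.22 as measured, and 43 of all 52 members tested were positive, against 35 as measured.

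Receptors for glutamate were higher at CT23 in all 8 tested cases, 7 ionotropic and 1 metabotropic, where 5922 of all 11342 genes tested were higher. Over all 18 listed, the mean was higher at CT23 in 15 and lower in 3. Gria2, the AMPA receptor subunit that keeps calcium out of the channel, had 7.33, 6.76 and 6.75 CPM in CT23 replicates 1, 2 and 3, against 4.23, 4.28 and 4.52 CPM in CT1 replicates 1, 2 and 3. The spread within each time was small beside the gap (ratio of means 1.60, log2 difference 0.57, SE 0.0985, limma adjusted p = 0.0736). Gria3, another AMPA receptor subunit, had 4.98, 5.38 and 4.18 CPM at CT23, against 3.55, 4.76 and 3.48 CPM at CT1, where CT1 replicate 2 fell within the CT23 range. Grik5, a kainate receptor subunit, had 1.68, 1.69 and 1.83 CPM at CT23, against 0.906, 0.793 and 1.26 CPM at CT1, without overlap (log2 difference 0.47, adjusted p = 0.114). Grin2b, an NMDA receptor subunit, had 4.32, 4.23 and 3.45 CPM at CT23, against 2.72, 3.57 and 2.37 CPM at CT1, and CT1 replicate 2 lay above CT23 replicate 3. Grin1, the subunit that every NMDA receptor needs, had 1 to 4 reads a library.

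Metabotropic glutamate receptors signal through G proteins and were low throughout. Grm5, the only one above the filter, had 1.54, 1.15 and 1.17 CPM at CT23, against 0.831, 0.714 and 1.26 CPM at CT1. Its highest CT1 library exceeded 2 of the CT23 libraries. Grm6, by which ON bipolar cells detect photoreceptor glutamate, had 1.10, 0.768 and 0.733 CPM at CT23, against 0.755, 0.872 and 0.740 CPM at CT1. The times overlapped. Grm4, a receptor on presynaptic terminals in the brain, had 0.440, 0.384 and 0.367 CPM at CT23, against 0.227, 0.317 and 0.148 CPM at CT1, without overlap on 2 to 6 reads a library.

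The GABA receptor genes had a higher mean at CT23 in all 12 listed cases, of which 5 were tested. Of all 14008 named entries, 7324 had a higher mean at CT23. These receptors are chloride channels, and most GABA-driven inhibition in the retina runs through them. Gabrb1, a beta subunit, had 3.96, 5.22 and 4.47 CPM at CT23, against 4.23, 5.15 and 3.11 CPM at CT1. Its times overlapped. Gabrr1 and Gabrr2, the rho subunits that are typical of the retina, had 1 to 11 reads a library.

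Glycine receptors are the other inhibitory chloride channels of the retina. Glrb, the subunit that anchors them at synapses, had 1.76, 1.61 and 1.32 CPM at CT23, against 1.36, 1.74 and 1.33 CPM at CT1, with overlapping times (log2 difference 0.05). Glra1, a ligand-binding subunit below the filter, had 1.03, 0.691 and 0.660 CPM at CT23, against 0.453, 0.476 and 0.444 CPM at CT1. Its times did not overlap, on 6 to 14 reads a library.

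The 27 members below the filter had means of 0.174 to 0.877 CPM, or 14 to 70 reads over the 6 libraries together. Their mean was higher at CT23 in 23 and lower in 4. In 7 of them all CT23 libraries lay above all CT1 libraries, and in 1 below. Over all 79 members these counts were 24 and 5, where 15.4% and 10.7% of all 14008 named entries were separated in the same directions. The gene below was Grin2d, an NMDA receptor subunit, at 0.440, 0.384 and 0.293 CPM at CT23, against 0.453, 0.555 and 0.815 CPM at CT1. With no filter, limma gave 21 members higher (11.6% of all genes in that fit) and 1 lower (8.88%) at an unadjusted p under 0.05, and 0 at an adjusted p of 0.05.

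**Figure D3:**
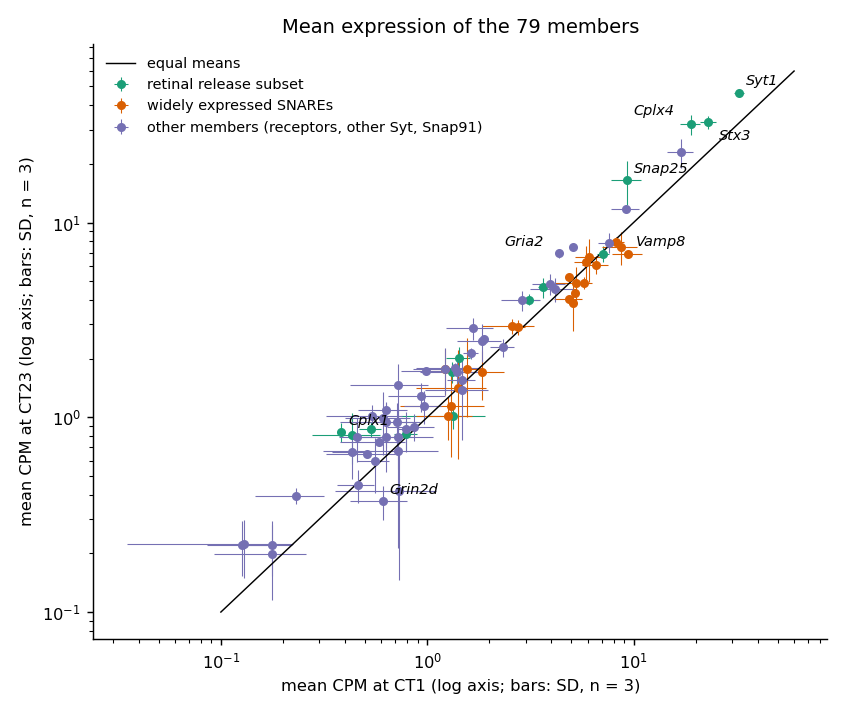
Mean CPM at CT23 (vertical) against mean CPM at CT1 (horizontal) for all 79 members on log axes, with bars for the SD (n = 3 each) and a line where both are equal. The retinal release subset lies mostly above the line, with Syt1, Stx3, Cplx4 and Snap25 at the top, and widely expressed SNAREs lie around it.

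Other genes of the synapse, taken from a list of presynaptic, ribbon, transporter, receptor-anchoring and bipolar signalling genes, gave a like picture. This list too was chosen with earlier results of these data known. Of 99 listed and 81 tested, 66 were higher and 15 lower at CT23, with a median log2 difference of 0.30. Of all 11342 genes tested, 5922 were higher and 5420 lower, with a median of 0.01. At an adjusted p of 0.1, 14 of the 81 were higher and 0 lower (3.06% and 1.32% of all genes tested), and none passed 0.05. Dlg4, the scaffold of excitatory postsynapses that photoreceptor terminals also contain, had 25.3, 24.04 and 26.5 CPM at CT23, against 18.0, 16.7 and 14.5 CPM at CT1. Slc17a7, which loads glutamate into vesicles, had 16.1, 15.7 and 16.9 CPM at CT23, against 11.9, 11.2 and 10.1 CPM at CT1. Slc1a2, a transporter that clears glutamate, averaged 22.0 ± 1.40 CPM at CT23, against 14.7 ± 0.808 CPM at CT1, and Cacna2d4, a calcium channel subunit of photoreceptor terminals, averaged 12.5 ± 0.936 CPM at CT23, against 8.04 ± 0.565 CPM at CT1 (± SD, 3 libraries a time). None of these 4 overlapped between the times, and each had a limma adjusted p of 0.0736.

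On the lower side of that list were 4 named genes. Slc6a13, a GABA transporter, had 35.2, 26.7 and 29.6 CPM at CT23, against 48.4, 46.6 and 36.7 CPM at CT1, without overlap (log2 difference -0.51, adjusted p = 0.114). Dag1, dystroglycan, which links cells to basement membranes and is present at ribbon synapses, averaged 40.5 ± 2.53 CPM at CT23, against 52.8 ± 4.47 CPM at CT1 (± SD, 3 libraries a time), without overlap. Cacng4, an auxiliary subunit of AMPA receptors, and Rab3d, a secretory Rab protein of many glands, had log2 differences of -0.22 and -0.36. CT23 replicate 1 was the lowest library for Rab3d, at 9.01 CPM, and the times overlapped.

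Rod markers were higher at CT23 in the same libraries, in 19 of 19 genes with a median log2 difference of 0.57, and their sums did not overlap between the times. The summed level of the retinal release subset was 163, 149 and 143 CPM in CT23 replicates 1, 2 and 3, against 104, 112 and 95.7 CPM in CT1 replicates 1, 2 and 3. Set against the rod markers of the same library, the subset came to 10.2, 11.1 and 10.5 CPM per 100 CPM of rod markers at CT23, against 10.7, 11.3 and 10.5 CPM per 100 CPM at CT1. On that scale the times overlapped. The rod sum was itself 1.496 times as high at CT23, so a level equal in CPM at both times comes out lower there. Glutamate receptors came to 2.03, 2.30 and 2.03 CPM per 100 CPM of rod markers at CT23, against 2.14, 2.52 and 2.35 CPM per 100 CPM at CT1, which also overlapped. GABA and glycine receptors came to 1.67, 2.083 and 1.81 CPM per 100 CPM at CT23, against 2.074, 2.39 and 2.18 CPM per 100 CPM at CT1. Their times overlapped as well, but only by a narrow margin, with CT23 replicate 2 just above CT1 replicate 1. The 4 complexins did not: they came to 2.71, 2.74 and 2.67 CPM per 100 CPM at CT23, against 2.49, 2.58 and 2.38 CPM per 100 CPM at CT1. Most of that sum was Cplx4 (mean 32.0 of 38.8 CPM at CT23, 18.9 of 23.9 CPM at CT1), so it says little about the lower complexins. Synaptotagmins lay the other way by a narrow margin, at 6.15, 7.126 and 6.58 CPM per 100 CPM at CT23, against 7.130, 7.52 and 7.38 CPM per 100 CPM at CT1. All 79 members together were also lower on this scale at CT23, at 22.7, 25.8 and 24.1 CPM per 100 CPM, against 27.9, 29.4 and 30.2 CPM per 100 CPM at CT1. Before division by the rod sum, their summed CPM at CT23 was 1.24 times that at CT1.

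Genes differed on the rod scale. Syt1 came to 29.7, 34.7 and 33.2 CPM per 1000 CPM of rod markers at CT23, against 33.5, 34.3 and 33.3 CPM per 1000 CPM at CT1, with overlap. Cplx4 came to 22.6, 22.1 and 22.1 CPM per 1000 CPM at CT23, against 20.3, 20.7 and 18.0 CPM per 1000 CPM at CT1, without overlap. Snap25, Stx3, Gria2 and Snap91 overlapped, as Syt1 did. Snap25 came to 13.4, 10.7 and 10.1 CPM per 1000 CPM at CT23, against 9.63, 10.9 and 8.50 at CT1. For Stx3 the values were 21.6, 24.9 and 22.1 at CT23, against 22.9, 25.5 and 23.6 at CT1. Gria2 had 4.57, 5.04 and 4.95 at CT23, against 4.35, 4.32 and 4.94 at CT1. Snap91 had 4.89, 5.61 and 5.27 at CT23, against 5.05, 5.28 and 5.59 at CT1. Vamp2, whose ratio of means in CPM was 0.973, was lower at CT23 on this scale. It came to 4.07, 5.72 and 4.84 CPM per 1000 CPM at CT23, against 6.91, 7.76 and 7.61 CPM per 1000 CPM at CT1. The widely expressed SNAREs were also lower on this scale at CT23, at 5.24, 6.23 and 6.05 CPM per 100 CPM, against 8.82, 8.68 and 10.7 CPM per 100 CPM at CT1. Before division by the rod sum, their summed CPM at CT23 was 0.926 times that at CT1.

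**Figure D4:**
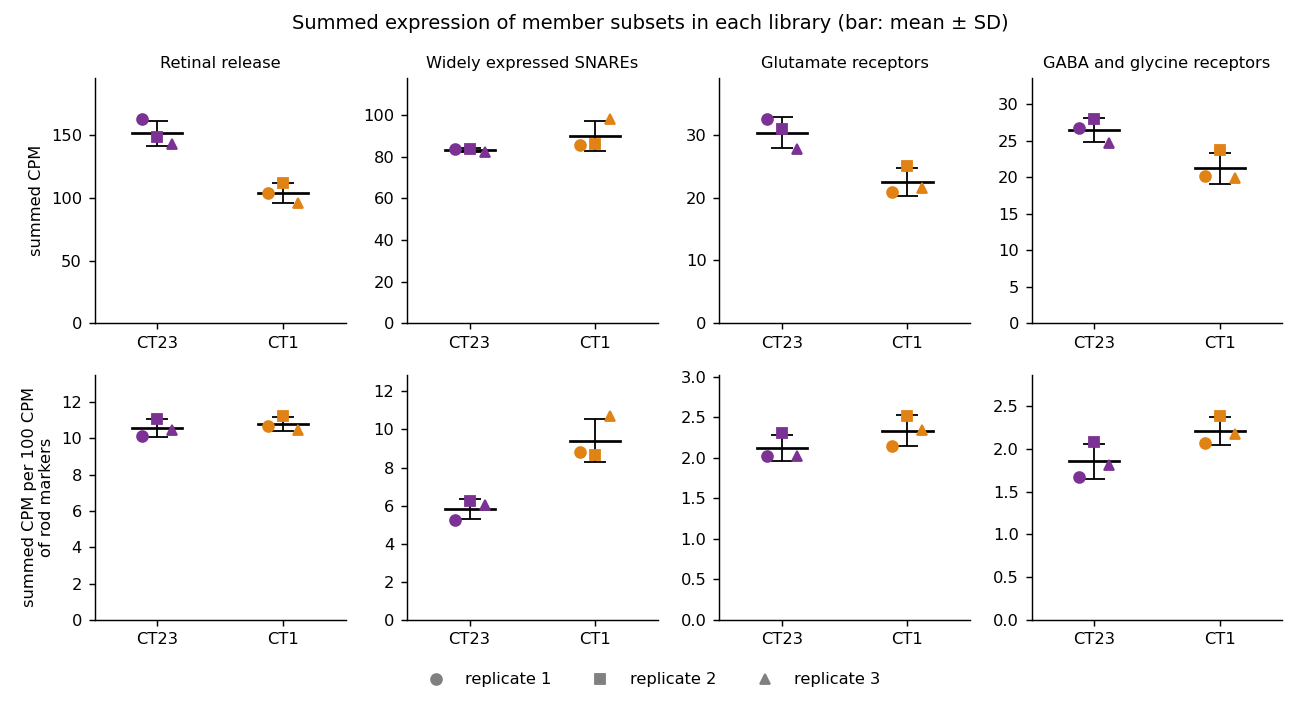
Summed CPM of 4 groups of members (top) and the same sums per 100 CPM of rod markers (bottom) in each library, with CT23 left and CT1 right, replicates as symbols, and bars for the mean ± SD (n = 3 each). The retinal release sum is separated between the times in CPM and overlaps when set against rod markers. The widely expressed SNAREs are lower at CT23 on the rod scale, whose divisor is itself higher at CT23.

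Markers of cones, which also have ribbon synapses (9 listed, 6 tested higher and 1 lower), summed to 24.03, 21.4 and 20.8 CPM at CT23, against 14.7, 16.0 and 13.5 CPM at CT1, without overlap. The ratio of means of the sums was 1.4997 for cone markers and 1.496 for rod markers. Single cone markers did not move together, with ratios from 0.772 for Opn1sw to 2.30 for Opn1mw. Bipolar markers (12 listed, 9 of 9 tested higher) summed to 210, 189 and 173 CPM at CT23, against 166, 191 and 145 CPM at CT1, with Trpm1 and Otx2, which RPE cells also express, making up most of the sum. Amacrine markers (10 listed, 7 of 7 tested higher) summed to 127, 115 and 128 CPM at CT23, against 124, 111 and 119 CPM at CT1. Most of that sum came from Pax6 (mean 78.0 CPM at CT23, 77.6 CPM at CT1) and Tfap2b (28.6 and 27.8 CPM), so it says little about the lower markers. Gad1, the enzyme that makes GABA in amacrine and horizontal cells, averaged 2.95 ± 0.403 CPM at CT23, against 1.59 ± 0.475 CPM at CT1 (± SD, 3 libraries a time), without overlap. Ganglion cell markers (8 listed, 3 tested higher and 3 lower) summed to 31.2 to 33.7 CPM at CT23, against 26.9 to 32.6 CPM at CT1. RPE markers were lower at CT23 in 12 of 13 genes. The part of RNA from retinal neurons in the differences of the members and of the other synaptic genes was not tested.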

How the data were processed

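RNA from 3 CT23 and 3 CT1 libraries was read with a 3′ mRNA kit, per the labels' protocols; RPE cells had been freed by sonication after the neural retina was peeled off. Tools named in the submitters' processing notes are Bowtie2 2.1.0, edgeR 3.24.1 and HTSeq, and the build is mm10; what each did is not stated there. Per the file headers, the authors deposited CPM for each library beside a p-value and a log2 fold; the deposited p-value and log2 fold were not used in tests. In 100% of values the CPM gave whole reads (tolerance 0.01 read), 1 read being 0.0733 to 0.0793 CPM. The limit a count of 0 allows, 3 reads, is 0.220 to 0.238 CPM and covers counting error only. Entries with no gene name (75 of 14083, 0.0432% to 0.102% of reads) were left out.

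Members and lists were chosen with earlier results of these data known. Because the unit is CPM, limma 3.58.1 with a mean-variance trend was fitted to log2(CPM + 1) over all 11342 genes whose mean reached 1 CPM, CT23 minus CT1, two-sided, with Benjamini-Hochberg adjustment; differences of low genes are understated on this scale. edgeR 4.0.16 and DESeq2 1.42.0 were run on the recovered reads. The tests were tried on simulated data. Nothing in the labels says that the pools came from separate animals, so p-values measure the spread between these libraries. No libraries of a time were duplicates (chi-square per gene 5.77 to 106 between them). Named in full were the 8 members with the smallest p in each direction, the 2 highest in each role, the retinal release subset, and 4 other synaptic genes in each direction; further names were chosen after their values were seen; a few genes due under this rule are left unreported here. Coordinates are from GENCODE M21, matched by symbol for 78 members. In 10 members another gene overlaps the last 500 bases (among them Vamp3, Stx18, Stx19, Syt2, Syn1, Grin1 and Grin2d); no source used here gives the strand setting of the counting, so their counts are uncertain.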

Additional observations from a re-analysis of the deposited data

How the results depend on the processing

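Over the 6 fits that leave out 1 library, the genes called at an adjusted p of 0.05 were 0 to 4 over all genes (4 without CT23 replicate 3, all higher at CT23), 0 among the members and 0 among the other synaptic genes. With the filter at a mean of 5 CPM, limma called 98 genes (1.76% higher, 0.318% lower), 4 of them members (Syt1, Cplx4, Gria2 and Snap91) and 4 other synaptic genes, all 8 higher at CT23. DESeq2 called 138 (81 higher and 57 lower; 1.5% and 1.05% of the 5405 genes it gave an adjusted p), with 2 members, Snap25 and Cplx4, and 1 other synaptic gene, Dlg4. Removing crystallin reads from the totals (added once the data had been seen) gave 360 (353 higher and 7 lower, 3.11% and 0.0617% of all genes), with 6 members and 14 other synaptic genes, all higher. An adjusted p of 0.1 gave 497 genes (3.06% higher and 1.32% lower), 6 members and 14 other synaptic genes. Pseudocounts of 0.5 and 0.1, no filter, TMM factors, edgeR's quasi-likelihood test and the replicate block called 0 in each. With the lens-rich CT23 replicates 1 and 2 left out (likewise added later), 0 were called, the smallest adjusted p of a member was 0.586, and 7 members were higher (4.14% of all genes) and 1 lower (4.21%) at an unadjusted p under 0.05; a lone CT23 library is then assumed to vary like the others.

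The replicate numbers did not pair the libraries: deviations of same-numbered libraries correlated at -0.255, 0.383 and -0.0418, and CT23 replicate 3 correlated best with CT1 replicate 1 (0.770). With the number as a block, 12 members were higher (11.8% of all genes) and 1 lower (10.0%) at an unadjusted p under 0.05. Over 17 settings the log2 difference stayed positive for Cplx4 (0.63 to 0.92), Syt1 (0.47 to 0.70), Stx3 (0.37 to 0.68), Snap25 (0.53 to 0.94), Gria2 (0.54 to 0.75) and Snap91 (0.43 to 0.66), and negative for Vamp8 (-0.48 to -0.21). It stayed negative over 16 settings for Snap29 (-0.29 to -0.05) and Stx5a (-0.30 to -0.06) and over 17 for Stx17 (-0.27 to -0.04). With 1 library left out, values ran from -0.038 to 0.25 for Gabrb1, -0.0058 to 0.12 for Glrb and -0.10 to 0.014 for Vamp2. Signs turned in genes near 0: Gabrb1 (-0.038 without CT1 replicate 3), Glrb (-0.0058 without CT23 replicate 1, -0.092 without CT23 replicates 1 and 2), Vamp2 (0.0015 without CT23 replicate 1, 0.014 without CT1 replicate 2, 0.14 with crystallin reads taken out) and Rab3d (0.011 without CT23 replicates 1 and 2). The cause was not tested.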
